A study of Rattus norvegicus with 6 samples.

Results

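The transcripts described here encode the enzymes and transporters that take glucose into the cell, break it down to pyruvate and handle the lactate and pyruvate that result. They are 34 listed genes, matched by name to the 16849 genes of the deposited count table, and all 34 were found. Of these, 33 carried the listed symbol, and pyruvate carboxylase, listed as Pcx, was found under its current symbol Pc (gene ID 25104). The rule that picks them uses no measured value, but the members were chosen with earlier results of these data known. RNA had been sequenced from RSC96, an immortalised rat Schwann cell line of wild-type genotype, in 3 groups of 2 libraries. In the PVDF@PDA group the cells were in a 24 h hypoxia model with medium conditioned by macrophages and a piezoelectric material, and in the PCL@PDA group they were in the same model with a material that is not piezoelectric. The third group is labelled Control. The labels give no time for it and do not say whether it received that medium. A difference from Control is thus a difference between whole conditions. The low-oxygen state is modelled through the medium, per the design text, and an oxygen level is not given in the sources used here. Each group has 1 library of batch 1 and 1 library of batch 3, called replicates 1 and 3 as in the titles. Nothing in the labels tells whether the libraries are from separate cultures, so p-values here cover only the spread among these samples, and that spread may be technical. Levels come from bulk RNA, in which fewer cells of a type and less RNA per cell cannot be told apart.

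Glucose enters cells through transporters of the Slc2a family and is trapped by hexokinase. An upper, energy-consuming stage of glycolysis then makes triose phosphates, and a lower stage turns them into pyruvate with a gain of ATP. Pyruvate is either reduced to lactate, which leaves the cell through monocarboxylate transporters, or oxidised in mitochondria by the pyruvate dehydrogenase complex, which the pyruvate dehydrogenase kinases switch off. Schwann cells are known to supply axons with lactate, and low oxygen is known to raise many glycolytic transcripts through hypoxia-inducible factor. That factor binds DNA at a core of ACGTG or GCGTG.

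Total counts ran from 32760123 to 35389307 per library, and the 3 group means were fitted together in edgeR, which tested 13018 genes. On the first principal component (34.5% of the variance) the 4 material libraries lay between -15.2 and -13 and the Control libraries at 27.6 and 29.3. The next component (20.8%) held PCL@PDA replicate 3 apart at -28.5, with PCL@PDA replicate 1 at 6.09 and the Control libraries at 13.7 and -13.6. Of 20 Schwann cell markers 18 were in the table. Their summed level was 307 to 311 CPM (read counts scaled to the TMM-adjusted library total) for PVDF@PDA, 295 to 312 for PCL@PDA and 282 to 294 in Control. Pmp22, Ncam1, Sox2 and Erbb3 were present, but 9 markers were under 1 CPM in every library, among them the defining S100b, Ngfr and Mbp. Within that list Ncam1 (PVDF@PDA 0.37, adjusted p = 8.10e-06, and PCL@PDA 0.25, 0.00201) and Pmp22 (PVDF@PDA 0.28, 0.0127, and PCL@PDA 0.27, 0.0156) were higher than in Control. Erbb3 was lower with both materials (PVDF@PDA -0.72, adjusted p = 0.000131, and PCL@PDA -0.61, 0.000849). Prx (-0.46, adjusted p = 0.00313) and Sox2 (-0.25, 0.0363) were lower for PVDF@PDA, and for PCL@PDA Prx (-0.27, 0.0837) and Sox2 (-0.23, 0.0554) did not pass, while Egr2 was higher (0.73, 0.0187). Of 16 macrophage markers 13 were in the table and 11 of these were under 1 CPM in every library, with summed levels of 8.99 to 9.02 (PVDF@PDA), 8.03 to 8.97 (PCL@PDA) and 8.38 to 8.43 CPM (Control). Fibroblast markers (6 of 8 in the table) summed to 808 to 828 CPM (PVDF@PDA), 813 to 836 (PCL@PDA) and 855 to 860 (Control), with Dcn and Col3a1 under 1 CPM in every library. Col1a2, at 602 to 674 CPM, made up most of that sum and was lower with both materials (PVDF@PDA -0.15, adjusted p = 0.0347, and PCL@PDA -0.14, 0.0314). Pdgfra (PVDF@PDA 0.65, adjusted p = 9.86e-06, and PCL@PDA 0.57, 7.37e-05) and Col1a1 (PVDF@PDA 0.68, 4.01e-05, and PCL@PDA 0.71, 1.77e-05) were higher with both. Endothelial markers (6 of 7) summed to 16.5 to 17.5 CPM (PVDF@PDA), 18.1 to 19.3 (PCL@PDA) and 16.2 to 17.8 (Control), with Pecam1, Cdh5 and Kdr under 1 CPM in every library, and Egfl7 was higher for PCL@PDA (0.49, adjusted p = 0.0198). The part of these marker shifts in the results was not tested.

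Promoter windows of 250 bases before an annotated start of the gene were available for 31 of the 34 members in RefSeq's annotation of the rat assembly GRCr8. They are shown for 4 members to set the ACGTG or GCGTG core beside the transcript results given further on: Ldha and Slc2a1, which were higher with both materials, Pdk1, which passed the test with neither, and Tpi1, which was higher with both but holds no such core in this window. Capitals mark ACGTG or GCGTG on the printed strand and their complements CACGT or CACGC, with neighbouring matches run together, and CACGTG, which is also an E-box, matches on both strands.
Ldha: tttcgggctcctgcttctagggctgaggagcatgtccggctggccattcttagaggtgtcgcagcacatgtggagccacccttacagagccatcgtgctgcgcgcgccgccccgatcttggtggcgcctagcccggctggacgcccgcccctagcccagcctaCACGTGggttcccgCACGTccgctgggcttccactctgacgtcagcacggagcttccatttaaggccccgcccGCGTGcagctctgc
Slc2a1: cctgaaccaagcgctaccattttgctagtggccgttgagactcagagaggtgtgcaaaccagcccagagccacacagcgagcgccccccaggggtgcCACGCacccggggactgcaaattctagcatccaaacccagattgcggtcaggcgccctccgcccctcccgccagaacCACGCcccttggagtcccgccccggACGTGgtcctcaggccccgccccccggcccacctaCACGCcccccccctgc
Pdk1: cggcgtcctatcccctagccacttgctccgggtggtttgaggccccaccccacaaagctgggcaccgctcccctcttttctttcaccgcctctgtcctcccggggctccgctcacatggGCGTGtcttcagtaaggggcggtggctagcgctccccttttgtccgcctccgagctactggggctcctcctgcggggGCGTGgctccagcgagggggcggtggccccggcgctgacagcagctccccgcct
Tpi1: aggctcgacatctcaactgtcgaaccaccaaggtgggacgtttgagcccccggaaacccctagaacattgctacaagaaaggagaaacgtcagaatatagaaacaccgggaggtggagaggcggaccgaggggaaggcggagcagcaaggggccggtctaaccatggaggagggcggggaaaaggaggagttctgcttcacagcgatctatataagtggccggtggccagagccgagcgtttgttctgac
The Ldha window lies at chr1:106507842-106508091 on the plus strand and holds 4 matches, 2 on each strand. That of Slc2a1 lies at chr5:138002272-138002521 on the plus strand and holds 4. The Pdk1 window at chr3:77113264-77113513, also on the plus strand, holds 2, and the Tpi1 window at chr4:159305089-159305338 on the minus strand holds 0. Some genes, among them Aldoa, Eno1 and Hk1, have more than 1 window, and a gene was counted if any of its windows held a match. By gene, at least 1 match was present in 23 of 31 members (74.2%) and in 5966 of 10605 tested genes with a window (56.3%). Counted by single window, the share was 12284 of all 33469 (36.7%), which is not set on the same basis. By gene, a match was present in 9 of 14 members that were higher than Control with at least 1 material (64.3%) and in 14 of 17 that were not (82.4%). A match is a string of letters in the window, and no binding was measured.

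By length-corrected level most of the abundant members were enzymes of lower glycolysis. The mean FPKM (fragments per kilobase of transcript, scaled by the library total) over the 6 libraries was 830 for Gapdh, 789 for Eno1, 623 for Pgk1, 622 for Aldoa, 593 for Ldha, 507 for Tpi1, 491 for Pkm and 474 for Pgam1. The ranges over libraries overlapped for Gapdh (723 to 964) and Eno1 (719 to 914), and both lay above that of Pgk1 (567 to 643). From Pgk1 to Pgam1 (399 to 534) each range overlapped that of its neighbour. A gap followed, with Slc2a3 at 151, Slc16a1 at 127 and Slc2a1 at 105. The lowest members were Pdk4 at 0.514 and Ldhb at 0.245, and Ldhb made up 0.025% to 0.0645% of the summed FPKM of Ldha and Ldhb in any library. All 34 members together took 1.23% and 1.25% of the counts with PVDF@PDA, 1.27% and 1.39% with PCL@PDA and 1.04% and 1.11% in Control. Every material library lay above both Control libraries in that share, and PCL@PDA replicate 3 was the highest.

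With either material, the transcripts for both glucose transporters, 6 of 9 members of upper glycolysis, the lactate dehydrogenase Ldha and the lactate exporter Slc16a3 were higher than in Control, by 1.2-fold to 1.76-fold where called, while the E1 beta subunit of pyruvate dehydrogenase was lower. Of 34 members, 12 were higher and 2 lower with PVDF@PDA, by edgeR's quasi-likelihood test with Benjamini-Hochberg adjustment across the whole table and a threshold of 0.05, and 20 did not pass. Of all genes tested, 6.79% were higher and 8.90% lower in that comparison. With PCL@PDA 16 members were higher, 2 were lower and 16 did not pass, against 8.77% higher and 11.3% lower among all genes. The median log2 difference of the members was 0.20 with PVDF@PDA and 0.30 with PCL@PDA, against 0.01 over all genes in each comparison. Both comparisons use the same Control libraries, so their values are set side by side and are not independent. Control replicate 1 lay below Control replicate 3 in 26 of 34 members. The share of all genes in that order is not given, so the shift cannot be read as particular to the members. Without Control replicate 1, 7 members were higher and 0 lower with PVDF@PDA (all genes 3.19% and 4.88%), and 12 were higher and 1 lower with PCL@PDA (4.12% and 5.89%). The 20 and 16 members that did not pass are given by their values below, since missing the threshold does not show that a member was unaltered.

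**Figure D1:**
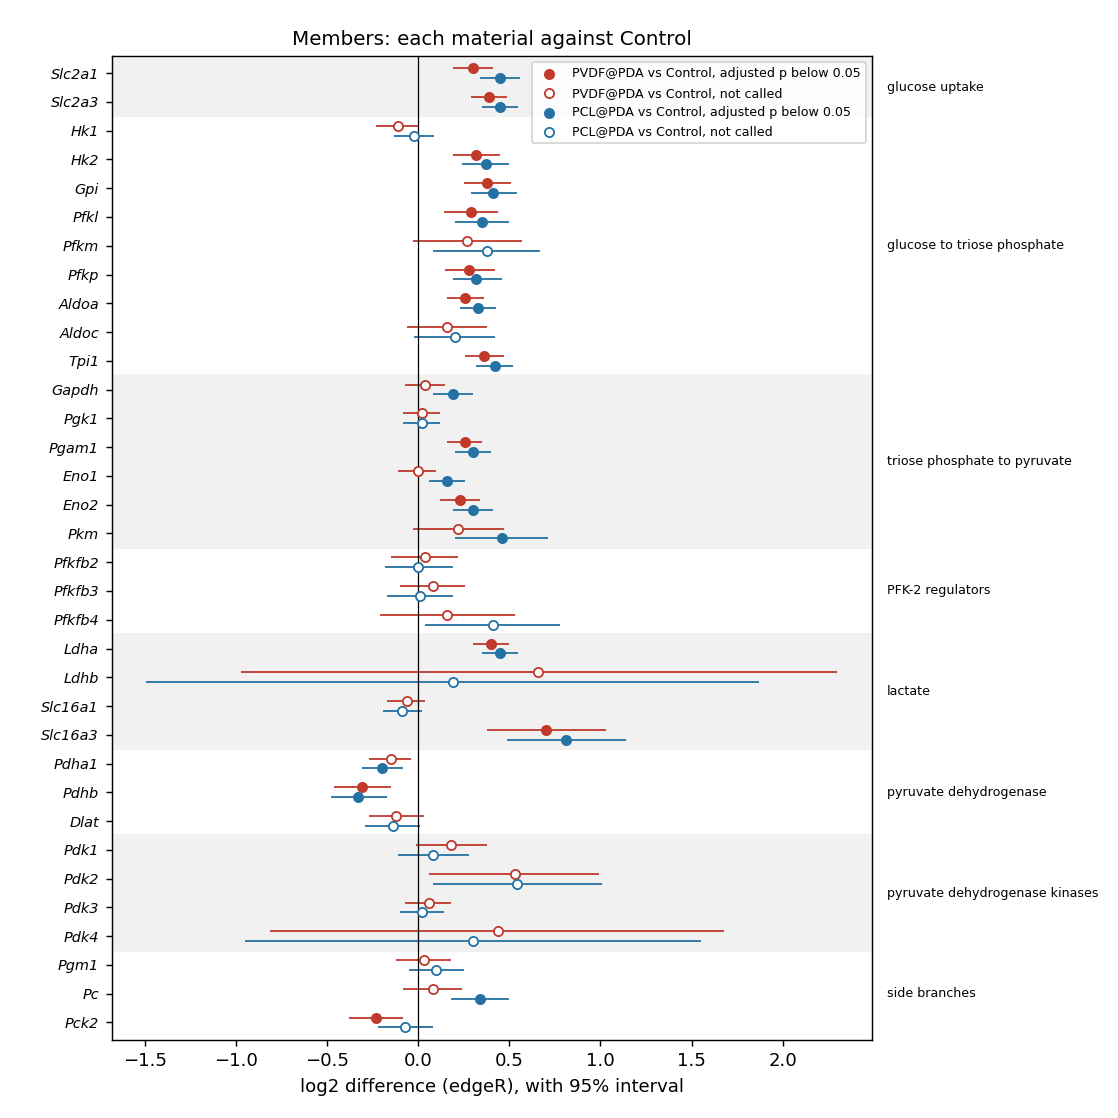
Log2 difference of each of the 34 members from Control (x axis) with its 95% interval, in order of pathway step (y axis), for PVDF@PDA (red, upper) and PCL@PDA (blue, lower). Filled points passed at an adjusted p below 0.05; the filled points run from -0.33 (Pdhb, PCL@PDA) to 0.81 (Slc16a3, PCL@PDA), and Ldhb and Pdk4 have the widest intervals.

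Both glucose transporters were higher with each material. Slc2a1 (GLUT1, gene ID 24778), the widely expressed basal glucose transporter, had 277 and 275 CPM for PVDF@PDA, 293 and 321 for PCL@PDA and 214 and 235 in Control. All 4 material libraries lay above both Control libraries, and PCL@PDA replicate 3 was the highest. The log2 difference from Control was 0.30 (SE 0.06, adjusted p = 7.84e-05) with PVDF@PDA and 0.45 (SE 0.06, adjusted p = 1.23e-08) with PCL@PDA. Slc2a3 (GLUT3, gene ID 25551), a high-affinity transporter best known from neurons, had 685 and 703 CPM for PVDF@PDA, 719 and 727 for PCL@PDA and 519 and 541 in Control. The groups did not overlap, and the differences from Control were 0.39 (SE 0.05, adjusted p = 3.30e-08) for PVDF@PDA and 0.45 (SE 0.05, adjusted p = 5.48e-10) for PCL@PDA. Slc2a3 was the more abundant of the pair per length, with 57.5% to 60.5% of their summed FPKM in all 6 libraries, so both rose with little change in their ratio.

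In the upper part of the pathway, 6 of 9 members were higher with PVDF@PDA and the same 6 with PCL@PDA. Hk2 (gene ID 25059), the hexokinase known to be induced in proliferating and hypoxic cells, had 122 and 119 CPM for PVDF@PDA, 127 and 121 for PCL@PDA and 88.3 and 104 in Control. Its difference from Control was 0.32 (SE 0.07, adjusted p = 0.000324) with PVDF@PDA and 0.37 (SE 0.07, adjusted p = 3.26e-05) with PCL@PDA, and no library of Control reached those of the materials. Hk1, the constitutive hexokinase, had 206 and 194 CPM for PVDF@PDA, 208 and 218 for PCL@PDA and 222 and 211 in Control. It passed in neither comparison (PVDF@PDA -0.11, interval -0.23 to 0.00, and PCL@PDA -0.02, interval -0.13 to 0.09). Within the summed FPKM of Hk1 and Hk2, the share of Hk2 was 41.3% and 42.1% with PVDF@PDA, 42% and 39.8% with PCL@PDA and 32.1% and 37% in Control.

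Gpi (gene ID 292804), which converts glucose 6-phosphate to fructose 6-phosphate, had 153 and 161 CPM for PVDF@PDA, 152 and 169 for PCL@PDA and 112 and 129 in Control. The groups did not overlap with Control, and the differences were 0.38 for PVDF@PDA (SE 0.06, adjusted p = 1.70e-05) and 0.41 for PCL@PDA (SE 0.06, adjusted p = 2.65e-06). Phosphofructokinase commits the sugar to glycolysis and has 3 subunit genes. Pfkl, the liver type (gene ID 25741), had 66.7 and 62.7 CPM for PVDF@PDA, 65.2 and 70 for PCL@PDA and 50 and 55.9 in Control (PVDF@PDA 0.29, SE 0.08, adjusted p = 0.00544, and PCL@PDA 0.35, SE 0.08, adjusted p = 0.000488). Pfkp, the platelet type (gene ID 60416), had 95.9 and 94.7 CPM for PVDF@PDA, 93.5 and 102 for PCL@PDA and 73.9 and 82.6 in Control (PVDF@PDA 0.28, SE 0.07, adjusted p = 0.00189, and PCL@PDA 0.32, SE 0.07, adjusted p = 0.000301). For both, the material libraries all lay above Control. Pfkm, the muscle type, was scarcer, with 13.1 and 12.7 CPM for PVDF@PDA, 12.3 and 15.5 for PCL@PDA and 10 and 11.4 in Control. It missed the threshold for PVDF@PDA (0.27, adjusted p = 0.229) and for PCL@PDA (0.38, adjusted p = 0.0612), but a batch term in the fit brought it past for PCL@PDA (log2 0.37, SE 0.14, adjusted p = 0.0415, a fit that called 10.3% of all genes higher). The 3 subunits kept nearly the same proportions per length, with Pfkl at 53% to 54.4% of their summed FPKM and Pfkp at 36.1% to 37.2%.

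Aldoa (gene ID 24189), the main aldolase, which splits fructose 1,6-bisphosphate, had 1180 and 1207 CPM for PVDF@PDA, 1204 and 1302 for PCL@PDA and 941 and 1050 in Control. The differences were 0.26 (SE 0.05, adjusted p = 0.000174) with PVDF@PDA and 0.33 (SE 0.05, adjusted p = 2.50e-06) with PCL@PDA, with no overlap with Control. Aldoc, a brain-type aldolase at 21.6 to 29.2 CPM, passed in neither, and Control replicate 3 (28.8 CPM) lay within the range of the materials. Tpi1 (gene ID 24849), which interconverts the triose phosphates, had 776 and 786 CPM for PVDF@PDA, 791 and 833 for PCL@PDA and 580 and 633 in Control. All material libraries were above Control, by 0.36 (SE 0.05, adjusted p = 2.84e-07) with PVDF@PDA and 0.42 (SE 0.05, adjusted p = 5.54e-09) with PCL@PDA. Of these 6 upper-pathway members, some calls depended on 1 library or on the test. Without Control replicate 1 the adjusted p for PVDF@PDA was 0.116 for Hk2, 0.189 for Pfkl, 0.135 for Pfkp and 0.0792 for Aldoa, and for PCL@PDA it was 0.0565 for Pfkl and 0.0536 for Pfkp. Without PVDF@PDA replicate 1 the adjusted p of Pfkl was 0.117. With limma on the FPKM values and a pseudocount of 1 the PVDF@PDA calls of Pfkl (adjusted p = 0.0567) and Pfkp (0.0687) were lost, and that of Pfkp also with a pseudocount of 0.1 (0.061). Hk2 was 0.20 for PVDF@PDA without Control replicate 1.

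**Figure D2:**
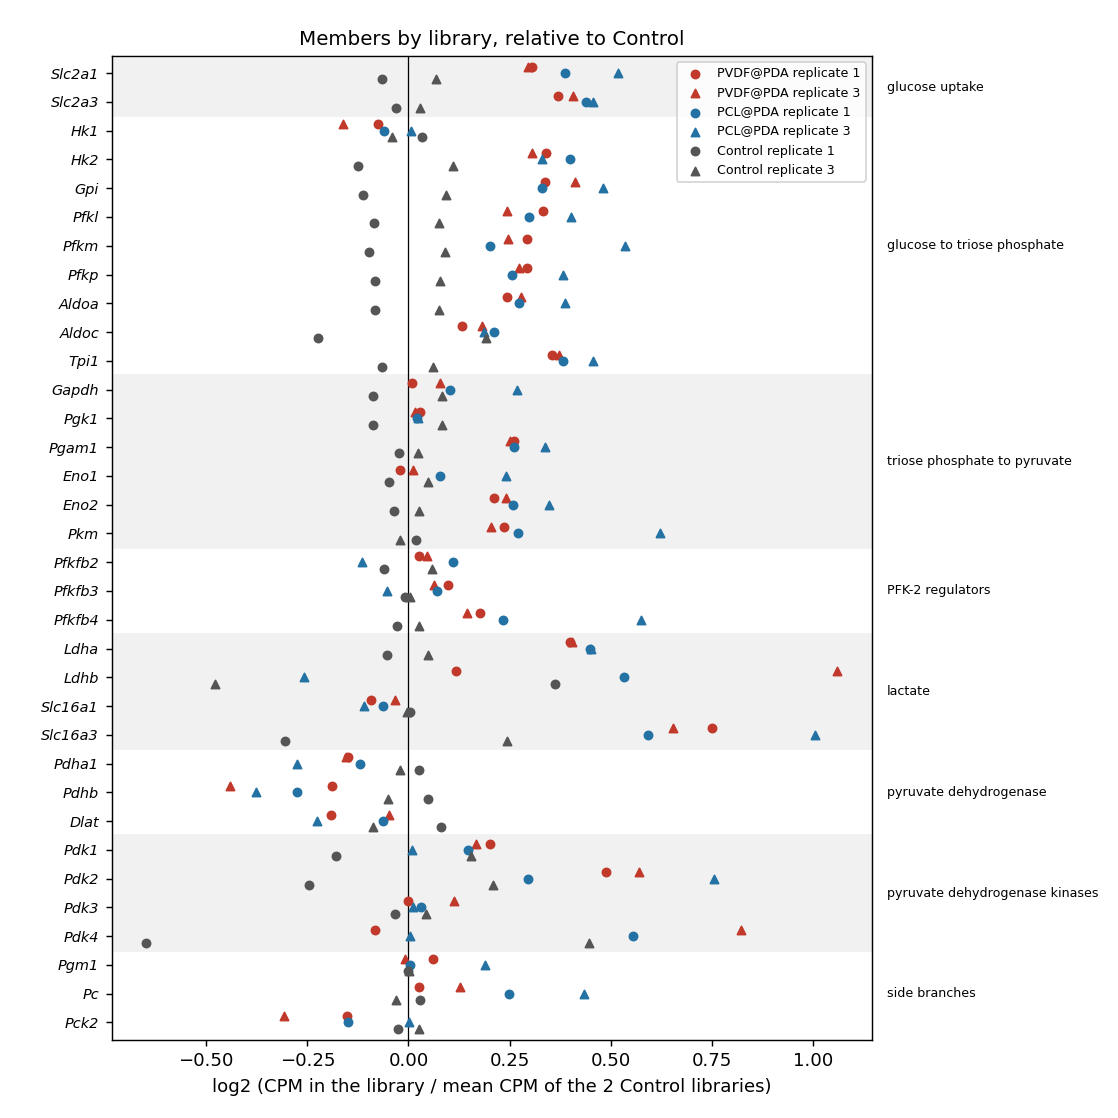
Level of each of the 34 members in each library as log2 of its CPM over the mean CPM of the Control libraries (x axis), in order of pathway step (y axis); colours are groups, circles replicate 1 and triangles replicate 3. PCL@PDA replicate 3 lies farthest to the right for Pkm, Slc16a3 and Eno1, and the Control replicates are spread for Pdk1 and Slc16a3.

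In the lower part of the pathway 2 of 6 members were higher with PVDF@PDA and 5 of 6 for PCL@PDA. Pgam1 (gene ID 24642), phosphoglycerate mutase, had 897 and 891 CPM for PVDF@PDA, 898 and 946 for PCL@PDA and 737 and 761 in Control. It was higher by 0.26 with PVDF@PDA (SE 0.05, adjusted p = 0.000109) and by 0.30 with PCL@PDA (SE 0.05, adjusted p = 5.60e-06), with tight pairs in every group. Eno2 (gene ID 24334), the enolase best known from neurons, had 242 and 247 CPM for PVDF@PDA, 250 and 266 for PCL@PDA and 204 and 213 in Control. It was higher by 0.23 with PVDF@PDA (SE 0.06, adjusted p = 0.00193) and by 0.30 with PCL@PDA (SE 0.06, adjusted p = 3.52e-05), and the PVDF@PDA call was lost without PVDF@PDA replicate 3 (adjusted p = 0.0614) or without Control replicate 1 (0.0877). Its share of the summed FPKM of Eno1 and Eno2 was 11.5% in both PVDF@PDA libraries, 11.1% and 10.6% with PCL@PDA and 10% and 9.85% in Control. Eno3, at 34.5 to 46.3 FPKM, is outside the 34 members and was left out of that sum.

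Eno1, Gapdh and Pkm, among the most abundant members, did not pass with PVDF@PDA and were higher with PCL@PDA, while none of these 3 was called between the materials. Eno1 (gene ID 24333), the widespread enolase, had 1531 and 1565 CPM for PVDF@PDA, 1637 and 1834 for PCL@PDA and 1501 and 1604 in Control. PVDF@PDA lay inside the Control range (0.00, interval -0.11 to 0.10, adjusted p = 0.976) and PCL@PDA above it (0.16, SE 0.05, adjusted p = 0.0175). Gapdh (gene ID 24383), which oxidises glyceraldehyde 3-phosphate, had 1133 and 1189 CPM for PVDF@PDA, 1210 and 1357 for PCL@PDA and 1060 and 1192 in Control. Its differences were 0.04 for PVDF@PDA (interval -0.07 to 0.15, adjusted p = 0.657) and 0.19 for PCL@PDA (SE 0.05, adjusted p = 0.0108). Pkm (gene ID 25630), pyruvate kinase, had 1456 and 1424 CPM for PVDF@PDA, 1492 and 1901 for PCL@PDA and 1253 and 1218 in Control. All material libraries lay above Control, but the gap between the PCL@PDA libraries was wide, and the differences were 0.22 for PVDF@PDA (interval -0.03 to 0.47, adjusted p = 0.236) and 0.46 for PCL@PDA (SE 0.11, adjusted p = 0.0263). Its PVDF@PDA value stayed 0.22 and passed without PCL@PDA replicate 3 (adjusted p = 3.31e-07), without PCL@PDA replicate 1 (4.35e-08), with only the 4 libraries compared (5.03e-07), with no filter on low counts (0.000978) and in a fit that is not robust (0.0058). Without PCL@PDA replicate 3 the PCL@PDA differences of Eno1 (0.07, adjusted p = 0.301) and Gapdh (0.10, adjusted p = 0.162) no longer passed, and in the fit lacking Control replicate 1 they were 0.11 for each (Eno1 0.328, Gapdh 0.381). With limma on the FPKM values neither passed for PCL@PDA (Eno1 0.0981 and 0.0845, Gapdh 0.106 and 0.0913, with pseudocounts of 1 and 0.1). Pkm was 0.27 for PCL@PDA without PCL@PDA replicate 3 (adjusted p = 3.45e-07), and its call for PCL@PDA was lost when libraries were scaled by their totals alone (adjusted p = 0.105). Pgk1, phosphoglycerate kinase, passed with neither material, at 1042 and 1034 CPM for PVDF@PDA, 1037 and 1039 for PCL@PDA and 962 and 1083 in Control, and its intervals (-0.08 to 0.12 in both comparisons) ended below the 0.36 of Tpi1 with PVDF@PDA.

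**Figure D3:**
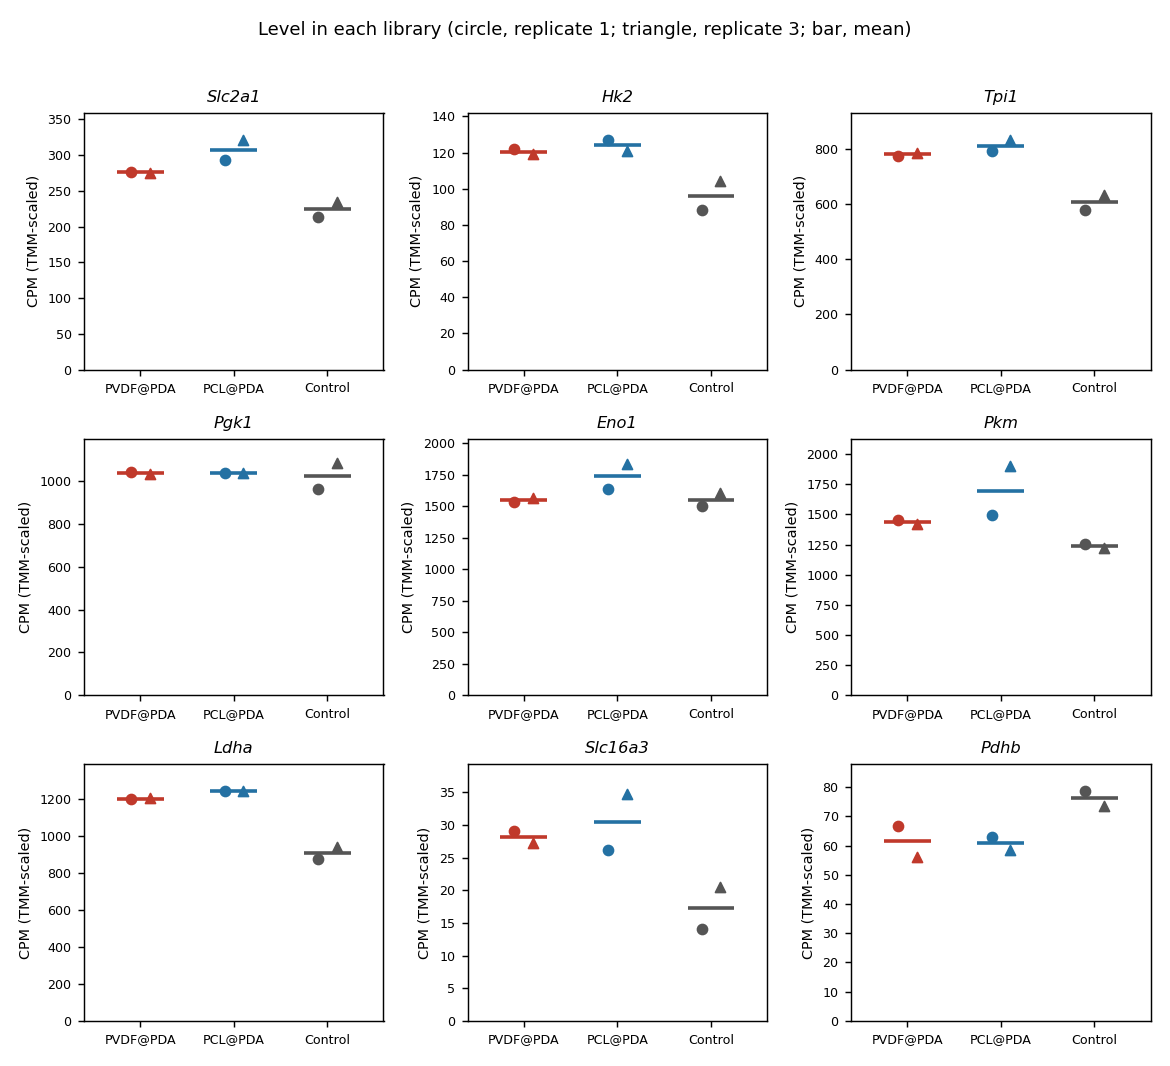
CPM in each library (y axis, from 0) for 9 members, by group (x axis); circles are replicate 1, triangles replicate 3 and bars the mean of the pair. For Slc2a1, Hk2, Tpi1, Pkm, Ldha and Slc16a3 the material libraries lie above Control, for Pdhb below it, and for Pgk1 and Eno1 some overlap it.

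At the lactate steps, Ldha (gene ID 24533), the lactate dehydrogenase subunit that favours lactate formation, had 1197 and 1202 CPM for PVDF@PDA, 1239 and 1241 for PCL@PDA and 876 and 939 in Control. It had the smallest p of all 34 members in both comparisons, with differences of 0.40 for PVDF@PDA (SE 0.05, adjusted p = 8.60e-09) and 0.45 for PCL@PDA (SE 0.05, adjusted p = 2.74e-10). Ldhb, the subunit that favours pyruvate formation, was near the limit of detection, at 0.304 and 0.584 CPM for PVDF@PDA, 0.405 and 0.234 for PCL@PDA and 0.36 and 0.201 in Control. Its intervals were too wide to read a direction. Slc16a3 (MCT4, gene ID 80878), the exporter typical of glycolytic cells, had 29.1 and 27.2 CPM for PVDF@PDA, 26.1 and 34.7 for PCL@PDA and 14 and 20.5 in Control. This was the largest fold among the members called, at 1.63-fold with PVDF@PDA (log2 0.70, SE 0.15, adjusted p = 0.00391) and 1.76-fold with PCL@PDA (log2 0.81, SE 0.15, adjusted p = 0.000904). With limma on the FPKM values Slc16a3 no longer passed for PVDF@PDA (0.68, adjusted p = 0.0657, with a pseudocount of 1 and 0.76, 0.0537, with 0.1), and without Control replicate 1 it was 0.45 (edgeR, adjusted p = 0.0198). Within batch 1 the PVDF@PDA difference was 1.05 and within batch 3 it was 0.41, as the Control libraries differed from each other. Slc16a1 (MCT1), the widespread monocarboxylate carrier, had 331 and 345 CPM for PVDF@PDA, 338 and 327 for PCL@PDA and 354 and 352 in Control and passed in neither (PVDF@PDA -0.06, interval -0.17 to 0.04, and PCL@PDA -0.09, interval -0.19 to 0.02). Slc16a3 thus made up 8.14% and 7.37% of the summed FPKM of the 2 carriers with PVDF@PDA, 7.21% and 9.66% with PCL@PDA and 3.84% and 5.55% in Control. Slc16a3 overlaps Csnk1d in the GRCr8 annotation, and the counting strand is not given in the sources used here. Csnk1d, at 191 to 215 CPM, differed by -0.13 for PVDF@PDA and by -0.09 for PCL@PDA and passed in neither comparison.

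**Figure D4:**
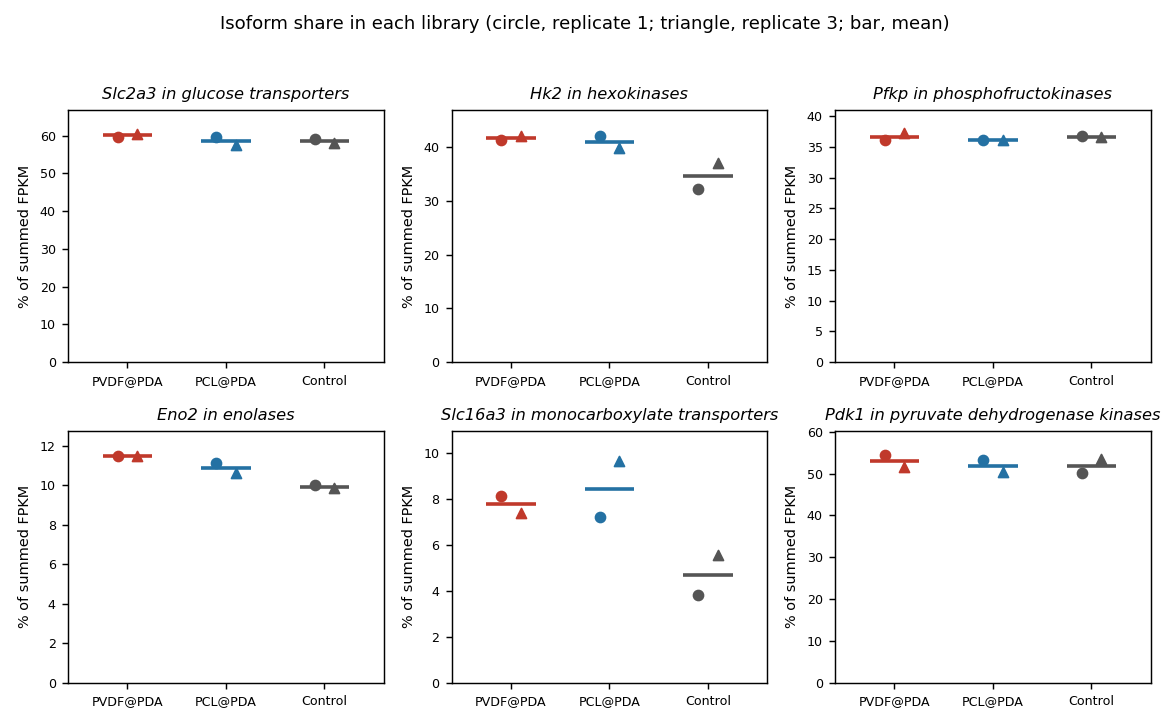
Share of a gene in the summed FPKM of its isoform family (y axis, in percent, from 0) in each library, by group (x axis); circles are replicate 1, triangles replicate 3 and bars the mean of the pair. The shares of Hk2, Eno2 and Slc16a3 lie higher in every material library than in Control, while those of Slc2a3 (57.5% to 60.5%) and Pfkp (36.1% to 37.2%) span a narrow range over all libraries and those of Pdk1 overlap between groups.

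At the entry of pyruvate to mitochondria, 1 of 3 members of the pyruvate dehydrogenase complex was lower for PVDF@PDA, and for PCL@PDA 2 were. Pdhb (gene ID 289950), the beta subunit of its E1 enzyme, had 66.8 and 56.1 CPM for PVDF@PDA, 62.9 and 58.6 for PCL@PDA and 78.7 and 73.5 in Control. All 4 material libraries lay below Control, with differences of -0.31 for PVDF@PDA (SE 0.08, adjusted p = 0.0031) and -0.33 for PCL@PDA (SE 0.08, adjusted p = 0.00139). The PVDF@PDA call was lost when PVDF@PDA replicate 3 (-0.19, adjusted p = 0.249) or Control replicate 1 (-0.26, 0.0759) was left out, and with limma on the FPKM values Pdhb passed in neither comparison (adjusted p = 0.0699 to 0.0976). Pdha1 (gene ID 29554), the alpha subunit, had 239 and 238 CPM for PVDF@PDA, 244 and 219 for PCL@PDA and 270 and 261 in Control. Its libraries were lower with both materials, and it missed the threshold with PVDF@PDA (-0.15, SE 0.06, adjusted p = 0.0522) and passed with PCL@PDA (-0.20, SE 0.06, adjusted p = 0.00843). With a batch term in the fit Pdha1 passed for PVDF@PDA as well (-0.15, SE 0.05, adjusted p = 0.0136), in a fit that called 11.2% of all genes lower. With limma on the FPKM values Pdha1 did not pass for PCL@PDA (adjusted p = 0.117 and 0.111, with pseudocounts of 1 and 0.1). Its PCL@PDA call was lost when PCL@PDA replicate 3 (-0.12, adjusted p = 0.113) or Control replicate 1 (-0.17, 0.131) was left out. Dlat, the E2 acetyltransferase, had 65.2 and 72 CPM for PVDF@PDA, 71.2 and 63.6 for PCL@PDA and 78.7 and 70 in Control and passed in neither comparison.

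None of the 4 pyruvate dehydrogenase kinases and none of the 3 PFK-2 enzymes passed in either comparison in the fit of all 6 libraries. Without PCL@PDA replicate 1, which leaves replicate 3 alone for PCL@PDA, Pdk2 and Pfkfb4 crossed the threshold for PCL@PDA against Control, as did Pfkm and Dlat. Pdk1 (gene ID 116551), the kinase known for its induction by hypoxia, had 38.3 and 37.4 CPM for PVDF@PDA, 36.9 and 33.5 for PCL@PDA and 29.4 and 37.1 in Control. Control replicate 3 lay within the material range, and the differences were 0.18 for PVDF@PDA (interval -0.01 to 0.38, adjusted p = 0.211) and 0.08 for PCL@PDA (interval -0.11 to 0.28, adjusted p = 0.623). Without Control replicate 3 Pdk1 passed for PVDF@PDA (0.36, adjusted p = 0.0431), a value that rests on Control replicate 1 alone. Pdk2, at 3.12 to 6.25 CPM, had the largest differences of the family (PVDF@PDA 0.53, interval 0.06 to 0.99, adjusted p = 0.115, and PCL@PDA 0.54, interval 0.08 to 1.01, adjusted p = 0.0913). Pdk3 lay at 131 to 145 CPM and Pdk4 at 0.39 to 1.08 CPM. Pfkfb3 (gene ID 117276), the PFK-2 enzyme that most favours glycolysis, had 38.4 and 37.5 CPM for PVDF@PDA, 37.7 and 34.6 for PCL@PDA and 35.7 and 36 in Control (PVDF@PDA 0.08, interval -0.10 to 0.26, and PCL@PDA 0.01, interval -0.17 to 0.19). Both PVDF@PDA libraries lay above Control, and the PCL@PDA libraries lay on either side of it. Pfkfb2 lay at 34 to 39.7 CPM, with overlapping groups. Pfkfb4, a hypoxia-inducible member of the family, had 7.23 and 7.07 CPM for PVDF@PDA, 7.52 and 9.52 for PCL@PDA and 6.27 and 6.51 in Control (PVDF@PDA 0.16, adjusted p = 0.626, and PCL@PDA 0.41, adjusted p = 0.108).

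In the side branches, Pc (gene ID 25104), which turns pyruvate into oxaloacetate, had 50.2 and 53.9 CPM for PVDF@PDA, 58.6 and 66.6 for PCL@PDA and 50.3 and 48.3 in Control. It differed by 0.08 with PVDF@PDA (interval -0.08 to 0.24, adjusted p = 0.573) and was higher with PCL@PDA (0.34, SE 0.08, adjusted p = 0.00104). Pck2 (gene ID 361042), the mitochondrial phosphoenolpyruvate carboxykinase, had 61.8 and 55.5 CPM for PVDF@PDA, 61.9 and 68.8 for PCL@PDA and 67.5 and 70 in Control. It was lower with PVDF@PDA (-0.23, SE 0.08, adjusted p = 0.0306) and differed by -0.07 with PCL@PDA (adjusted p = 0.562). The Pck2 call was lost without PVDF@PDA replicate 3 (-0.15, adjusted p = 0.398), without either Control library (0.0853 and 0.189), in DESeq2 (0.0637) and with library totals alone (-0.19, 0.0829). With limma on the FPKM values Pck2 did not pass for PVDF@PDA either (adjusted p = 0.187 and 0.175, with pseudocounts of 1 and 0.1). Pgm1, which links glucose 6-phosphate to glycogen, lay at 64.2 to 73.7 CPM and passed in neither comparison.

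The design sets PVDF@PDA against PCL@PDA to assess the piezoelectric effect, but the polymers differ as well as that property, so both are held in 1 comparison and cannot be told apart. None of the 34 members passed in that comparison. Of all genes tested, 0.0538% were higher and 0.00768% lower. DESeq2 also called 0 members. The share of all genes with an unadjusted p below 0.05 is not given, so a count of members below it is not particular to them. In edgeR 5 members had an unadjusted p below 0.05. These were Pc (50.2 and 53.9 CPM with PVDF@PDA against 58.6 and 66.6 with PCL@PDA, log2 -0.27, SE 0.08, adjusted p = 0.343), Eno1 (-0.16, SE 0.05, adjusted p = 0.372), Slc2a1 (-0.15, SE 0.06, adjusted p = 0.424), Gapdh (-0.14, SE 0.05, adjusted p = 0.439) and Pck2 (-0.16, SE 0.08, adjusted p = 0.567). The largest difference among members above 1 CPM other than Pc was that of Pfkfb4 (-0.25, interval -0.62 to 0.11), followed by Pkm (-0.24, interval -0.49 to 0.02). The log2 difference was negative in 23 of 34 members and in 48.6% of all genes, with a median of -0.05 in the members and 0.00 over all genes. For 31 of 34 members the 95% interval lay wholly between -0.5 and 0.5, so a larger difference was not seen for those at this depth. The share of all genes with such an interval is not given, so this count is not particular to the members.

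**Figure D5:**
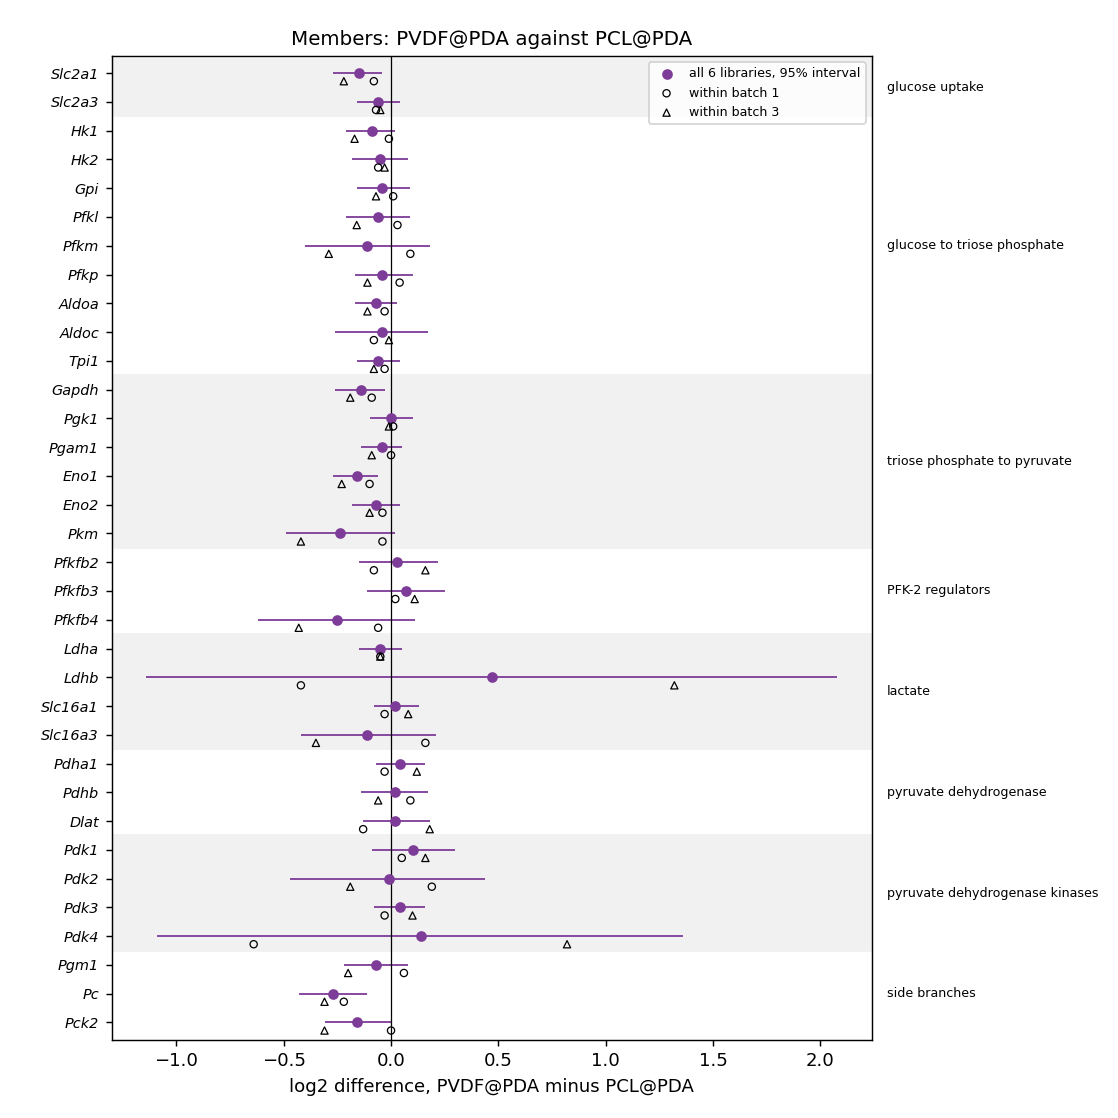
Log2 difference of PVDF@PDA minus PCL@PDA (x axis) for the 34 members in order of pathway step (y axis); filled points with 95% intervals are from all 6 libraries, and open circles and triangles are the differences within batch 1 and batch 3. For Pkm the batch 3 value (-0.42) lies far from that of batch 1 (-0.04), and no member passed at an adjusted p below 0.05.

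The values between the materials moved with PCL@PDA replicate 3. Pkm differed by -0.04 within batch 1 and by -0.42 within batch 3, and Eno1 by -0.10 and -0.23. A batch term in the fit brought Eno1 past the threshold (-0.16, SE 0.04, adjusted p = 0.0197), in a fit that called 0.323% of all genes lower. Without PCL@PDA replicate 1, which leaves replicate 3 alone for PCL@PDA and assumes that it varies like the other groups, 5 members were lower with PVDF@PDA, against 3.28% of all genes. They were Slc2a1 (-0.22, adjusted p = 0.00314), Gapdh (-0.23, 0.000438), Eno1 (-0.24, 1.61e-05), Pkm (-0.40, 8.58e-15) and Pc (-0.36, 0.00269). Without PCL@PDA replicate 3 none passed. With no filter on low counts Pkm passed (-0.24, adjusted p = 0.00901).

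Among genes around the pathway, none of the related lists held a gene that passed between PVDF@PDA and PCL@PDA, where 0.0538% of all genes were higher and 0.00768% lower. The calls against Control are given list by list. Against Control, 6.79% of all genes tested were higher and 8.90% lower with PVDF@PDA, and 8.77% and 11.3% with PCL@PDA. Of 19 tested genes of glycogen turnover, 4 were higher and 0 lower with PVDF@PDA and 6 higher and 1 lower with PCL@PDA (median log2 0.07 with PVDF@PDA and 0.02 with PCL@PDA, against 0.01 over all genes in each). The brain-type glycogen phosphorylase Pygb had 127 and 127 CPM for PVDF@PDA, 135 and 135 for PCL@PDA and 99.2 and 114 in Control (PVDF@PDA 0.26, SE 0.06, adjusted p = 0.00273, and PCL@PDA 0.34, SE 0.06, adjusted p = 5.13e-05). The liver type was higher with both materials, Pygl by 0.35 with PVDF@PDA (adjusted p = 0.025) and 0.51 with PCL@PDA (0.000564). Pygl had 27.4 and 26.7 CPM for PVDF@PDA, 29.3 and 31.2 for PCL@PDA and 18.4 and 24.2 in Control. Its PVDF@PDA difference was 0.58 within batch 1 and 0.14 within batch 3. Pygm, at only 2.04 to 5.58 CPM, was higher by 0.82 for PVDF@PDA (0.0199) and by 0.96 for PCL@PDA (0.00393). The lysosomal glucosidase Gaa did not pass with PVDF@PDA (0.07, adjusted p = 0.504) and was higher with PCL@PDA (0.26, 0.00387). All 3 phosphorylase genes, which release glucose 1-phosphate from glycogen, were thus higher with both materials. Values with a library left out are not given for them. The glycogen synthase Gys1 was also higher with PCL@PDA (0.22, adjusted p = 0.0132), and the branching enzyme Gbe1 was lower (-0.35, 0.0135). With PVDF@PDA neither passed (Gys1 0.10, adjusted p = 0.358, and Gbe1 -0.25, 0.106). Of 11 pentose phosphate genes 0 passed with PVDF@PDA, 2 of them at an unadjusted p below 0.05. The share of all genes at that unadjusted p is not given.

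In the tricarboxylic acid cycle, 1 of 16 genes was higher and 5 were lower with PVDF@PDA, and 1 was higher and 2 lower with PCL@PDA (median log2 -0.12 with PVDF@PDA and -0.01 with PCL@PDA). Among all genes the shares were 6.79% higher and 8.90% lower with PVDF@PDA, and 8.77% and 11.3% with PCL@PDA. The succinyl-CoA ligase subunits Sucla2 (PVDF@PDA -0.21, adjusted p = 0.00959, and PCL@PDA -0.23, 0.00415) and Suclg2 (PVDF@PDA -0.20, 0.0209, and PCL@PDA -0.23, 0.00461) were lower with both materials. Sdhb, a subunit of succinate dehydrogenase, was lower with PVDF@PDA (-0.27, SE 0.07, adjusted p = 0.00715) and did not pass with PCL@PDA (-0.18, 0.0666). Idh2, the mitochondrial NADP-dependent isocitrate dehydrogenase, was higher with both (PVDF@PDA 0.29, adjusted p = 0.0153, and PCL@PDA 0.34, 0.00288). Of 11 genes of pyruvate and monocarboxylate entry, 3 were higher and 1 lower with PVDF@PDA and 2 higher and 2 lower with PCL@PDA. Pdp2, a phosphatase that reactivates pyruvate dehydrogenase, had 40.2 and 33.1 CPM for PVDF@PDA, 38.5 and 38.1 for PCL@PDA and 30.2 and 25.6 in Control (PVDF@PDA 0.39, SE 0.10, adjusted p = 0.00388, and PCL@PDA 0.46, SE 0.10, adjusted p = 0.000548). Bsg, the chaperone of the lactate carriers, did not pass with PVDF@PDA (0.12, adjusted p = 0.174) and was higher with PCL@PDA (0.24, 0.00206). Dld, the E3 subunit shared by the 2-oxoacid dehydrogenases, did not pass with PVDF@PDA (-0.10, adjusted p = 0.241) and was lower with PCL@PDA (-0.22, 0.00361). Mpc2, a subunit of the mitochondrial pyruvate carrier, was higher with PVDF@PDA (0.29, adjusted p = 0.0145) and did not pass with PCL@PDA (0.08, 0.584).

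Of 15 tested regulators of glycolysis, 2 were higher and 3 lower with PVDF@PDA and 3 higher and 3 lower with PCL@PDA (median log2 0.01 with PVDF@PDA and 0.06 with PCL@PDA). The shares over all genes were 6.79% higher and 8.90% lower with PVDF@PDA, and 8.77% and 11.3% with PCL@PDA. Ppargc1a (PGC-1 alpha), a coactivator of mitochondrial genes, had 3.98 and 3.91 CPM for PVDF@PDA, 2.86 and 3.36 for PCL@PDA and 1.02 and 1.03 in Control (PVDF@PDA 1.94, SE 0.32, adjusted p = 7.09e-06, and PCL@PDA 1.60, SE 0.32, adjusted p = 0.000163). Prkaa1, a catalytic subunit of the energy sensor AMPK, was higher by 0.31 with PVDF@PDA (adjusted p = 0.000141) and 0.23 with PCL@PDA (0.00349). The arrestins Arrdc4 and Txnip, which are known to reduce glucose uptake and to follow intracellular glucose, were lower with both materials. Arrdc4 had 162 and 154 CPM for PVDF@PDA, 152 and 149 for PCL@PDA and 193 and 183 in Control (PVDF@PDA -0.25, adjusted p = 0.00115, and PCL@PDA -0.32, 3.31e-05). Txnip had 848 and 874 CPM for PVDF@PDA, 861 and 818 for PCL@PDA and 937 and 963 in Control (PVDF@PDA -0.14, adjusted p = 0.039, and PCL@PDA -0.18, 0.00624).

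Among 10 genes of the hexosamine and serine branches 3 were higher and 1 lower with PVDF@PDA and 2 higher and 0 lower with PCL@PDA. For this and the next lists, the shares over all genes were 6.79% higher and 8.90% lower with PVDF@PDA, and 8.77% and 11.3% with PCL@PDA. Gfpt2, an isoform of the first hexosamine enzyme, was higher by 0.40 with both (adjusted p = 0.0112 for PVDF@PDA and 0.00904 for PCL@PDA). Gfpt1 was higher by 0.21 with PVDF@PDA (0.0455), and with PCL@PDA it differed by 0.18 (0.0868). The cytosolic serine hydroxymethyltransferase Shmt1 was higher with both (PVDF@PDA 0.27, adjusted p = 0.0254, and PCL@PDA 0.46, 6.49e-05). The mitochondrial Shmt2 was lower with PVDF@PDA (-0.26, adjusted p = 0.00097) and differed by -0.12 with PCL@PDA (0.134). Of 16 genes of redox shuttles and anaplerosis 1 was higher with PVDF@PDA and 3 with PCL@PDA, and none was lower. Acly, which makes cytosolic acetyl-CoA from citrate, was higher with both (PVDF@PDA 0.20, adjusted p = 0.0127, and PCL@PDA 0.25, 0.00116). Of the malate-aspartate shuttle, Got2 (PVDF@PDA 0.14, 0.0542, and PCL@PDA 0.21, 0.00242) and Slc25a12 (PVDF@PDA 0.28, 0.0779, and PCL@PDA 0.34, 0.0261) passed with PCL@PDA, and neither was called between the materials. Of 29 further isoforms and sugar transporters 20 were tested, with 3 higher for PVDF@PDA and 1 for PCL@PDA. Minpp1, a multiple inositol polyphosphate phosphatase, was higher with both (PVDF@PDA 0.33, adjusted p = 0.000498, and PCL@PDA 0.29, 0.00145). Slc2a6 had 1.58 and 1.9 CPM for PVDF@PDA, 0.781 and 0.963 for PCL@PDA and 0.69 and 0.0861 in Control, so its difference with PVDF@PDA (2.17, SE 0.60, adjusted p = 0.00808) rests on few reads. Slc2a13, a myo-inositol carrier, was higher with PVDF@PDA (0.77, adjusted p = 0.0219) and did not pass with PCL@PDA (0.56, 0.102). Only 2 of 6 gluconeogenesis genes had enough reads to be tested, and 0 passed in either comparison. At an unadjusted p below 0.05 there was 1 for PVDF@PDA and 0 for PCL@PDA, and the share of all genes is not given.

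Some values carry a limit of counting. Hk1, Pfkm, Aldoa, Tpi1, Pfkfb2, Slc16a3, Pdha1 and Pc overlap another gene in the GRCr8 annotation, and the strand of counting is not given in the sources used here, so reads of such pairs may not be told apart. Of these neighbours, Senp1 (67.6 to 75.1 CPM), Spsb2 (25.8 to 32.5 CPM), Lrfn4 (15.5 to 20 CPM) and Csnk1d had more than 10 CPM, and none of the tested neighbours passed in any comparison. Abundant glycolytic genes, Gapdh among them, are known to have near-identical processed copies in rodent genomes, and how reads that fit several places were counted is not given, so their levels are uncertain to that extent.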

How the data were processed

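RNA of 6 RSC96 libraries was measured, 2 in each of 3 groups set by titles and treatment labels. Where the PCL@PDA descriptions name PVDF@PDA, the titles were followed. The authors deposited unnormalised whole-number counts per gene. The deposited FPKM values were made by the authors from those counts: for 15690 genes counted in at least 2 libraries, count over FPKM gave 1 length times the library total within 1e-05. DESeq2 1.4.5 and mRatBN7.2 appear in the submitters' processing notes without a role, and aligner, counter and strand were not given in the sources used here.

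TMM-scaled counts went through edgeR 4.0.16 under R 4.3.3, with filterByExpr on the groups (13018 of 16849 genes kept, 3831 removed) and a robust quasi-likelihood fit over all 6 libraries with 3 residual degrees of freedom. Tests were 2-sided, adjusted by Benjamini-Hochberg over all genes, and called below 0.05. Levels are TMM-scaled CPM, shares of isoforms use FPKM, and all differences are log2 values from the deposited counts with 95% intervals. A count of 3 equals 0.0861 to 0.0911 CPM, a floor for counting error only. The biological coefficient of variation was 6.47%. No pair of libraries matched within sampling noise (chi-square per degree of freedom 4.84 for PVDF@PDA, 10.4 for PCL@PDA and 5.61 for Control).

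The labels give batch 1 to replicate 1 and batch 3 to replicate 3 of every group, so the numbers pair the libraries by label, while the library names number the second 2. Across genes, same-numbered libraries deviated from their group means with r = -0.021 between the materials, 0.043 for PVDF@PDA and Control, and 0.13 for PCL@PDA and Control. Alternatives were the batch term, RLE size factors, library totals, no filter, a fit that is not robust, only the 4 libraries compared, DESeq2 1.42.0, limma 3.58.1 on log2(FPKM + 1) and log2(FPKM + 0.1), and each library left out. The members, lists and markers were chosen with earlier results of these data known. Values are given in full for members called in any comparison and for Slc2a1, Hk2, Pfkfb3, Ldha, Slc16a3, Pdk1 and Eno1. In each related list up to 4 called genes with the smallest p against Control are named, and Gys1 and Gbe1 besides. Gene IDs were matched to RefSeq GRCr8 (16673 of 16849, and 34 of 34 members) for names, overlaps and promoter windows only. The fit was also run on simulated counts drawn without a batch effect, and its outcome is not given here. A few results on genes outside the 34 members are not reported here.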

Additional observations from a re-analysis of the deposited data

How the results depend on the processing

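The number of members called was 0 between PVDF@PDA and PCL@PDA, 14 between PVDF@PDA and Control and 18 between PCL@PDA and Control. Between the materials it was 1 with no filter (Pkm), 1 with the batch as an added term (the replicate block, Eno1) and 0 to 5 when 1 library was left out. Between PVDF@PDA and Control it was 9 with limma on log2(FPKM + 1) and 7 to 17 when 1 library was left out, the 7 being without Control replicate 1. Between PCL@PDA and Control it was 13 to 22 when 1 library was left out. The replicate block gave 15 and 19 calls against Control and changed no call other than those of Eno1, Pdha1 and Pfkm. Where leaving out a library left a group with 1, that library was assumed to vary like the other groups. The share of all genes called also moved with the setting. With the batch term, 11.2% of all genes were lower with PVDF@PDA and 10.3% higher with PCL@PDA, against 8.90% and 8.77% in the main fit. That share is not given for every setting, so a changed count is not particular to the members.

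The difference was recomputed under each setting for 21 of the 34 members, those called in any comparison or given in full by rule, and the sign turned for some values that had not been called. With 1 library left out, PVDF@PDA against PCL@PDA ran from -0.11 to 0.04 for Gpi, -0.10 to 0.03 for Pfkp, -0.30 to 0.11 for Slc16a3 and -0.03 to 0.12 for Pdha1, with the sign turned only without PCL@PDA replicate 3. Pdhb ran from -0.12 (without PVDF@PDA replicate 1) to 0.13 and was -0.03 without PCL@PDA replicate 3. PVDF@PDA against Control ran from -0.04 (without Control replicate 1) to 0.13 for Gapdh. For Eno1 it was 0.03 with library totals and with either limma setting, 0.01 without PVDF@PDA replicate 1 and 0.04 without Control replicate 3. PCL@PDA against Control ran from -0.05 (without PCL@PDA replicate 1) to 0.07 for Pfkfb3, from -0.16 to 0.00 (without PCL@PDA replicate 1) for Pck2 and from -0.08 (without Control replicate 1) to 0.26 for Pdk1. The cause was not tested. Of the other values recomputed for these members, 872 kept direction and side of the threshold, 40 lost the call and 18 gained one. Depth limits Ldhb and Pdk4 most.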
